A study of Homo sapiens with 6 samples.

Results

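The proteasome is the protease of the cytosol and nucleus that degrades ubiquitin-tagged proteins, and its genes were followed here across 6 RNA-seq libraries of T98G cells, an established human glioblastoma line. Members were taken by name: every symbol beginning with PSMA to PSMG and a number, together with POMP, ADRM1 and NFE2L1, with a mean level of at least 5 CPM (counts scaled to library size) over the 6 libraries. By name 51 of the 57133 rows matched, and 47 of them passed the level. The 4 that did not were PSMA8, PSMB8, PSMB9 and PSMB11, which had 0 counts in every library except for 1 count of PSMB11 in WT CBX8 re-expression replicate 3. All 47 were among the 14461 genes tested.

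All libraries came from T98G cells in which CBX8, a chromodomain subunit of the Polycomb repressive complex PRC1, had been knocked out with the guide sgCBX8. The cells carried the reverse tetracycline transactivator and either an empty doxycycline-inducible TetO vector (CBX8 KO, 3 libraries) or the same vector with wild-type CBX8 (WT CBX8 re-expression, 3 libraries). Both groups received doxycycline at 1 μg/ml for 72 h, and poly(A) RNA was sequenced as paired reads of 100 bp. The lines were drug-selected after lentiviral transduction and are not stated to be clones, the genotype label of the re-expression libraries reads wild type although their titles and the methods describe CBX8 put back into the KO line, and no source says that replicates came from separate cultures, so errors and p-values describe the spread between libraries.

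The core of the proteasome is a barrel of stacked rings, with alpha subunits (PSMA genes) forming the gated outer rings and beta subunits (PSMB genes) the inner rings that hold the proteolytic sites. A cap, built of a base with ATPases (PSMC genes) and a lid (PSMD genes), binds ubiquitinated proteins, removes the ubiquitin and feeds the unfolded chain into the core. After interferon signalling cells replace the catalytic beta subunits by PSMB8, PSMB9 and PSMB10 and add an activator ring of PSME1 and PSME2, which together form the immunoproteasome, known for making peptides for MHC class I presentation. Assembly needs dedicated chaperones (PSMG1 to PSMG4 and POMP for the core, PSMD5, PSMD9 and PSMD10 for the cap), and NFE2L1 (also called NRF1) is the transcription factor that raises proteasome genes when proteasome activity is short.

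The 3 immunoproteasome genes that could be tested are shown first by their promoters, because all 3 hold the core letters of an interferon-stimulated response element (ISRE), here GAAA, any 2 bases, GAAA on either strand. The window ran from 250 bases before to 50 bases after each RefSeq gene start (GRCh38.p14), and 41 of the 47 members were matched to one. The letters were found in 6 of the 41 members (14.6%), against 3.57% of all 35116 windows and 3.86% of the 9726 tested genes, of 14461, that matched a window. Capitals mark the match in each run below, which is read on the strand of the gene. PSMB8, which had no counts here, is shown for its shared letters. The windows of PSMB9 and PSMB11, the other immunoproteasome genes that could not be tested, held no ISRE match.
PSMB10 (chr16:67936852-67936881, minus strand): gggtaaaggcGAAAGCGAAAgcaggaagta
PSME2 (chr14:24146619-24146648, minus strand): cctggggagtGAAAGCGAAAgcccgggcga
PSME1 (chr14:24136189-24136218, plus strand): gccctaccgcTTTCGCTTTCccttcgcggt
PSMG4 (chr6:3258904-3258933, plus strand): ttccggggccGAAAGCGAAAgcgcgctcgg
PSMB8 (chr6:32844032-32844061, minus strand): gatctgtggcTTTCGCTTTCacttcctcct
The other 2 members with a match were PSMB4 and PSMA4. A match is a run of letters in a window and was not tested for binding.

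The letters TGACNNNGC, the core of the antioxidant response element (ARE) that NFE2L1 recognises, were found on either strand in the windows of 15 of the 41 members (36.6%), against 13.3% of all windows and 19.4% of the 9726 tested genes that matched a window. No ARE match in these windows overlapped an ISRE match. Sites are shown for PSMG1 and PSME2, which were lower upon re-expression, and for ADRM1, which was not.
PSMG1 (chr21:39183616-39183644, minus strand): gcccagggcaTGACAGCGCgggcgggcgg
PSME2 (chr14:24146767-24146795, minus strand): ccctggactgTGACCCAGCcagcaccgcc
ADRM1 (chr20:62302749-62302777, plus strand): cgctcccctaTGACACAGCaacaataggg
PSMB2, PSMA3 and PSMB10, the other members lower upon re-expression, had no ARE match. Further letters were searched in the same windows. TTCNNNGAA (GAS) was found in 14.6% of the 41 members, not in PSMB10, PSME1 or PSME2, against 8.53% of the tested genes that matched a window. CCGGAAG (ETS) was found in 36.6% against 22.9%, and CCAAT in 48.8% against 43.4%.

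Total counts per library lay between 7950190 and 8659796. CBX8 itself had 83 to 104 counts in the CBX8 KO libraries and 27791 to 31408 in the re-expression libraries. Of the 6 glioma line markers VIM, CD44, EGFR and OLIG2 were present at a mean of 1 CPM or more, NES was below it and SOX2 was at 0. Of the 6 glial markers GFAP and SLC1A3 were present while S100B and AQP4 were at 0. The summed levels of 3 marker lists did not overlap between the groups. Among single tested genes the groups did not overlap for 14.4% in each direction. Fibroblast markers (4 of 5 at 1 CPM or more, DCN at 0) summed to 932 to 1003 CPM in CBX8 KO and 1155 to 1188 CPM upon re-expression, glial markers (2 of 6) to 25.0 to 27.8 and 18.6 to 23.5 CPM, and neuronal markers (2 of 4, STMN2 at 0) to 11.1 to 12.6 and 14.1 to 17.2 CPM. Immune markers (2 of 5) overlapped between the groups at 3.30 to 4.78 and 3.46 to 5.16 CPM. Endothelial markers (0 of 3) stayed at or below 0.468 CPM and epithelial markers (0 of 2) at or below 0.726 CPM in every library. The part of these markers in the proteasome values was not tested, and in bulk RNA fewer cells of a kind and less RNA per cell cannot be told apart.

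The first comparison asked which proteasome genes differed between the 2 groups. Re-expression of CBX8 was accompanied by lower levels of 5 of the 47 members and by higher levels of none (quasi-likelihood test of edgeR, adjusted by Benjamini-Hochberg over all tested genes, FDR < 0.05). The 5 were PSMB10, an immunoproteasome catalytic subunit, PSME2, an immunoproteasome activator subunit, PSMB2 and PSMA3, structural subunits of the core, and PSMG1, a chaperone of alpha ring assembly. None of the 18 cap genes was among them. The 5 are 10.6% of the members, beside 6.63% of all tested genes called lower, the 0 called higher stand beside 6.23%, and over both directions 12.9% of all tested genes were called. At an unadjusted p under 0.05, 9 members (19.1%) were lower and 0 were higher, beside 12.7% of all tested genes in each direction and 25.3% in both together, the added 4 members being PSMG4, PSMC6, PSMA1 and POMP.

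The differences were small across the complex. Of the 47 log2 fold changes (re-expression minus KO) 36 were below 0 and 11 above, with a median of -0.056 beside 0.0049 over all tested genes, whereas scaling by library size alone gave 24 below and 23 above and a median of -0.00077, beside a median over all tested genes of 0.060 under that scaling. The re-expression libraries all lay below the CBX8 KO libraries for 12 members (25.5%), beside 14.4% of all tested genes, and all lay above them for 2 members (4.26%), ADRM1 and PSMD8, also beside 14.4%. Apart from PSMB3, described below, the 41 members that were not called had 95% intervals between -0.40 and 0.32, and in 34 of them the interval stayed within 0.25 of 0 on the log2 scale. These intervals rest on 84 to 3822 counts per gene and library.

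**Figure D1:**
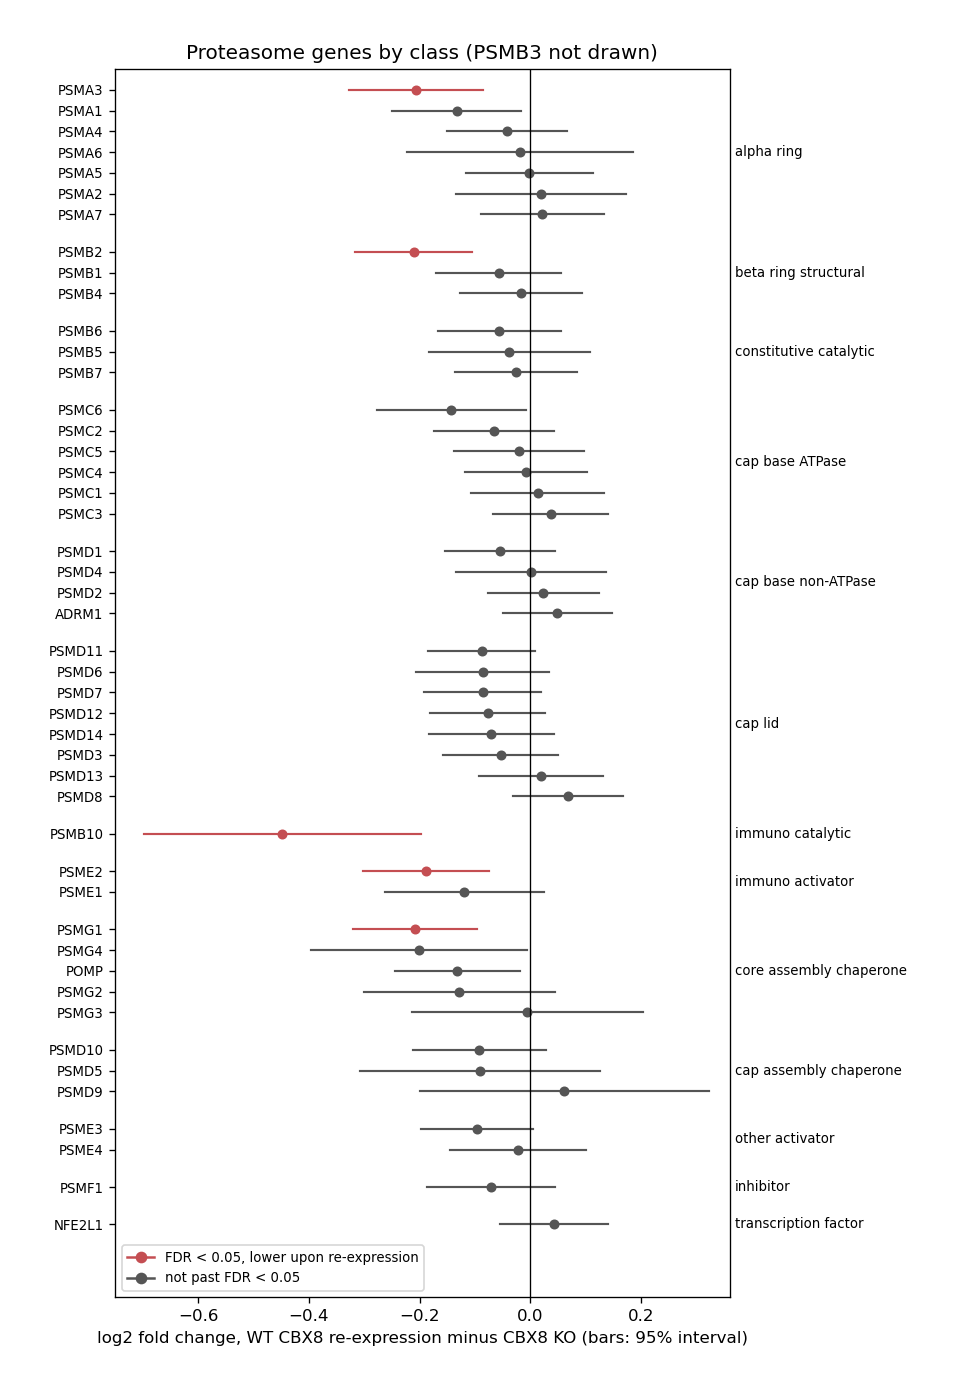
Log2 fold change (horizontal axis, re-expression minus KO) of 46 proteasome genes, grouped by class, with 95% intervals from the edgeR fit as bars and genes past FDR < 0.05 in red. PSMB10 lies farthest from 0 at -0.45, and the red points fall in the core, immunoproteasome and assembly classes, with none in the cap. PSMB3 is not drawn because its interval ran from -1.43 to 1.23.

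The member with the largest called difference was PSMB10 (ENSG00000205220.12, chromosome 16, 67934506 to 67936864 on the minus strand, GENCODE release 44 on hg38), which takes the place of PSMB7 in the immunoproteasome. Its CPM values, scaled by TMM like all CPM values per library given here, were 16.5, 22.7 and 23.9 in CBX8 KO and 16.0, 14.6 and 15.7 upon re-expression. CBX8 KO replicate 1 sat 0.5 CPM above the highest re-expression library, while the other CBX8 KO libraries stood well apart. The log2 fold change was -0.45 (SE 0.12, n = 3 and 3), a level that fell by 26.7%, with an edgeR quasi-likelihood adjusted p of 0.013. Leaving out CBX8 KO replicate 2, CBX8 KO replicate 3 or re-expression replicate 2 ended this call, with log2 fold changes of -0.39, -0.35 and -0.41 and edgeR adjusted p of 0.075, 0.084 and 0.073, within a range of 0.00096 to 0.084 over all refits. These values rest on 128 to 191 counts per library.

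PSMB2 (ENSG00000126067.12, chromosome 1, 35599541 to 35641526, minus strand), a structural subunit of the beta ring, had CPM values of 279, 282 and 269 in CBX8 KO and 222, 251 and 244 upon re-expression. The groups did not overlap, and re-expression replicate 1 was the lowest. Its log2 fold change was -0.21 (SE 0.05, n = 3 and 3, edgeR quasi-likelihood adjusted p of 0.0061), on 1892 to 2371 counts per library. It was the only one of the 5 that passed in all 16 refits at FDR < 0.05, including each library left out in turn, with log2 fold changes between -0.25 and -0.16.

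PSMA3 (ENSG00000100567.13, chromosome 14, 58244843 to 58272012, plus strand) belongs to the alpha ring that gates entry into the core. It was even among the CBX8 KO libraries, at 88.8, 88.3 and 89.7 CPM, and reached 79.6, 80.3 and 71.2 CPM upon re-expression. The lowest value was that of re-expression replicate 3. The log2 fold change was -0.21 (SE 0.06, n = 3 and 3, edgeR quasi-likelihood adjusted p of 0.018). It did not pass without re-expression replicate 3 (-0.16, edgeR adjusted p 0.11) or without CBX8 KO replicate 2 (-0.21, edgeR adjusted p 0.059), nor after correction for GC content and length (-0.15, edgeR adjusted p 0.056), within a range of 0.010 to 0.11 over all refits.

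PSMG1 (ENSG00000183527.12, chromosome 21, 39174769 to 39183488, minus strand) pairs with PSMG2 as a chaperone on which the alpha ring is put together. Its CPM values were 113, 119 and 108 in CBX8 KO and 95.3, 100.1 and 99.2 upon re-expression. All 3 re-expression libraries were below all 3 CBX8 KO libraries. The log2 fold change was -0.21 (SE 0.05, n = 3 and 3, edgeR quasi-likelihood adjusted p of 0.011), and without CBX8 KO replicate 2 it was -0.17 with an edgeR adjusted p of 0.095, within a range of 0.0043 to 0.095 over all refits.

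PSME2 (ENSG00000100911.16, chromosome 14, 24143362 to 24147570, minus strand) is a subunit of the interferon-inducible activator that caps the core in place of the ATPase-bearing cap. It had 121, 130 and 124 CPM in CBX8 KO and 116, 108 and 104 CPM upon re-expression, again with no overlap. The log2 fold change was -0.19 (SE 0.06, n = 3 and 3, edgeR quasi-likelihood adjusted p of 0.022). Without CBX8 KO replicate 2, re-expression replicate 2 or re-expression replicate 3 the log2 fold change was -0.16, -0.18 and -0.16 and the edgeR adjusted p was 0.14, 0.10 and 0.0997, within a range of 0.0089 to 0.14 over all refits. Its exons overlap those of RNF31 on the other strand, which had 129 to 144 counts against 876 to 1094 for PSME2. The named processed copies of PSME2 held at most 2.41% of the counts of the gene and those copies together.

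**Figure D2:**
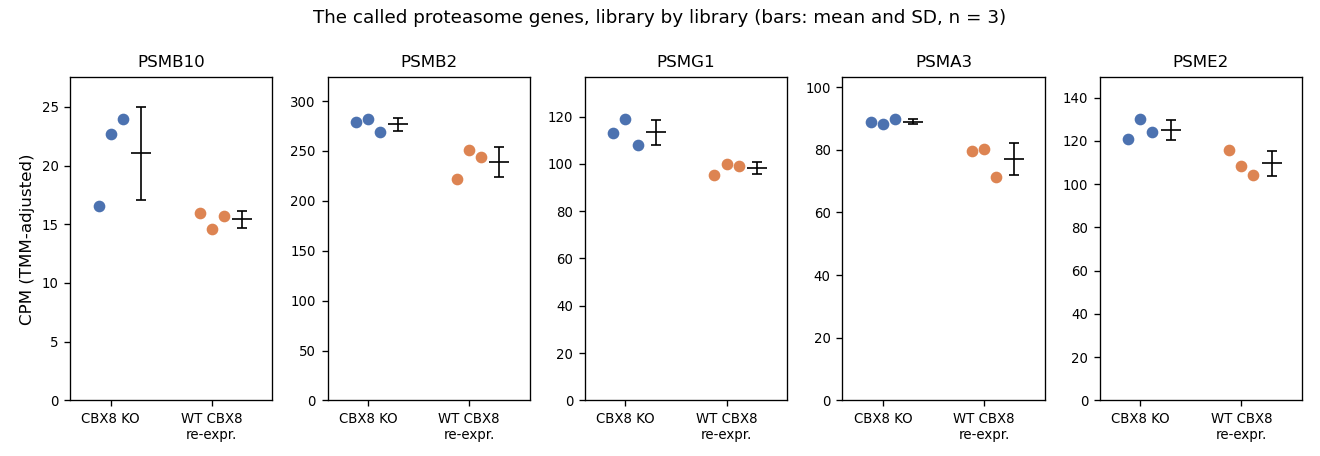
CPM (vertical axis, TMM-adjusted, starting at 0) of the 5 called members in each library, with CBX8 KO in blue and WT CBX8 re-expression in orange, and black bars for the mean and SD of the 3 libraries. In every panel the orange points lie below the blue points, by the narrowest margin for PSMB10, where CBX8 KO replicate 1 (16.5 CPM) is next to re-expression replicate 1 (16.0 CPM).

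The number of members called changed when a library was left out, and so did the share of all tested genes called lower, 6.63% with all libraries. Members called lower numbered 6 without CBX8 KO replicate 1, beside 5.39% of all tested genes. The added member was PSMA1 (-0.18, edgeR adjusted p 0.042, range over all refits 0.042 to 0.43). Without CBX8 KO replicate 2 there were 1 lower (PSMB2) and 1 higher (PSMB3), beside 4.61% and 4.22%. Members called lower were 3 without re-expression replicate 2 and 3 without re-expression replicate 3, beside 4.33% and 5.71%. DESeq2 called 3 members lower (PSMB2, PSMB10 and PSMG1), beside 4.7% of all tested genes. Scaling by library size alone called 2 (PSMB2 and PSMB10), with 592 lower and 1400 higher of all tested genes in place of 959 and 901.

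Library by library, the deviation of each member from its own mean showed how far the complex moved as a unit. The median deviation over the 47 members was 0.01, 0.06 and 0.04 on the log2 scale in CBX8 KO and -0.02, -0.01 and -0.07 upon re-expression. CBX8 KO replicate 2 was above the mean for 36 members and re-expression replicate 3 for 12, while CBX8 KO replicate 1 (24 members) and re-expression replicate 2 (21 members) were nearly level. As a share of all counts, which carries no such scaling, the 47 members made up 0.627%, 0.659% and 0.644% in CBX8 KO and 0.650%, 0.653% and 0.634% upon re-expression, so that the groups overlapped.

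**Figure D3:**
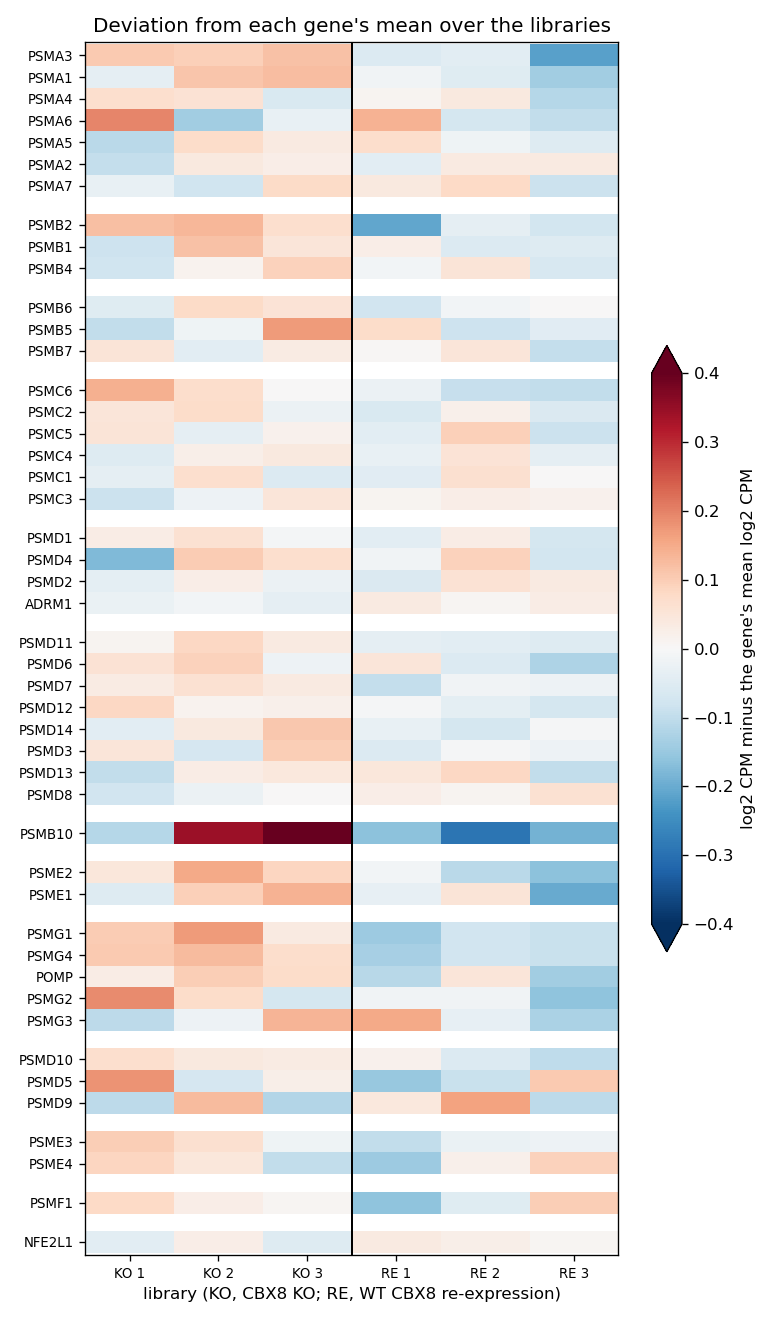
Log2 CPM of 46 proteasome genes (rows, grouped by class) in each library (columns) minus the gene's mean over the 6 libraries, red for above and blue for below, with the black line between the groups. PSMB10 shows the strongest colours, red in CBX8 KO replicates 2 and 3 and blue upon re-expression. Over all 47 members, PSMB3 included though not drawn, CBX8 KO replicate 2 is above the mean for 36 and re-expression replicate 3 for 12.

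The constitutive catalytic subunits carry the proteolytic activity of the standard core, PSMB5 the chymotrypsin-like, PSMB6 the caspase-like and PSMB7 the trypsin-like site, and none of them passed the test. PSMB5 was at 57.8, 61.1 and 69.6 CPM in CBX8 KO and 65.1, 58.4 and 60.0 CPM upon re-expression. Its log2 fold change was -0.04 (95% interval -0.18 to 0.11). PSMB6 was at 112, 122 and 120 CPM against 110, 115 and 116 CPM, and its log2 fold change was -0.06 (95% interval -0.17 to 0.06). PSMB7 was at 135, 126 and 133 CPM against 130, 135 and 122 CPM, with a log2 fold change of -0.03 (95% interval -0.14 to 0.08). The groups overlapped for all 3, and with library size scaling the values for PSMB5 and PSMB7 were 0.02 and 0.03, below the median of all tested genes under that scaling (0.060).

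PSMB10 can be set against PSMB7, the subunit it replaces, within each library, which removes library scaling. Per kb of transcript PSMB10 had 12.4%, 18.1% and 18.1% of the level of PSMB7 in CBX8 KO and 12.3%, 10.9% and 13.0% upon re-expression. CBX8 KO replicate 1 fell among the re-expression libraries on this measure. The difference of the mean log2 ratios was -0.40, with a two-sided exact permutation p of 0.20 (n = 3 and 3), where 0.10 is the smallest p this design allows. PSME2 stood at 235%, 229% and 212% of its partner PSME1 per kb in CBX8 KO and at 223%, 197% and 225% upon re-expression, a difference of -0.07 on the log2 scale with overlapping groups (two-sided exact permutation p of 0.50).

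Of the 3 immunoproteasome genes tested 2 were lower and 0 higher, beside 6.63% and 6.23% of all tested genes, with a median log2 fold change of -0.19. PSME1 had 62.5, 69.2 and 71.3 CPM in CBX8 KO and 63.2, 67.2 and 56.3 CPM upon re-expression, and its log2 fold change of -0.12 (SE 0.07, edgeR quasi-likelihood adjusted p of 0.30) did not pass. PSMB8 and PSMB9, which replace PSMB5 and PSMB6, had 0 counts in all 6 libraries, and 3 counts, the limit that a count of 0 allows, correspond to 0.346 to 0.377 CPM per library for counting error. Both genes lie in the MHC region of chromosome 6, and each matched at least 95% of its transcript bases on 7 alternate contigs of hg38.

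Among other genes of that region some had few or no counts and some kept them, and they are named here after their values were seen. TAP1 (7 alternate copies) and TAPBP (4) had 0 counts in every library, and TAP2 (7) had 2 counts in 1 library. HLA-B and HLA-C, with 3 alternate copies each, kept 171 to 255 and 1049 to 1385 counts. The part of the alternate copies in the counts of PSMB8 and PSMB9 was not tested, and 0 counts were not read as absence of expression. PSMB10 and PSME2 lie outside that region and have no alternate copy.

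PSMB3, a structural subunit of the beta ring, was the member whose replicates spread most. Its counts were 2, 568 and 40 in CBX8 KO and 281, 11 and 299 upon re-expression. The spread within each group covered that between them, and the log2 fold change of -0.10 had an SE of 0.65 (edgeR quasi-likelihood adjusted p of 0.95). Without CBX8 KO replicate 2 it turned to 3.11 with an edgeR adjusted p of 0.0036 (range over all refits 0.0036 to 0.99). Its sign also turned without re-expression replicate 2 (0.46) and with limma voom (1.16), neither of them called. It was the only one of the 47 members with an alternate copy (1 contig). Its mean level over all libraries was 31.2 CPM per kb, and 88.6 in the library where it was highest. The median of the other core genes was 86.9 CPM per kb. The part of that copy in the spread was not tested.

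**Figure D4:**
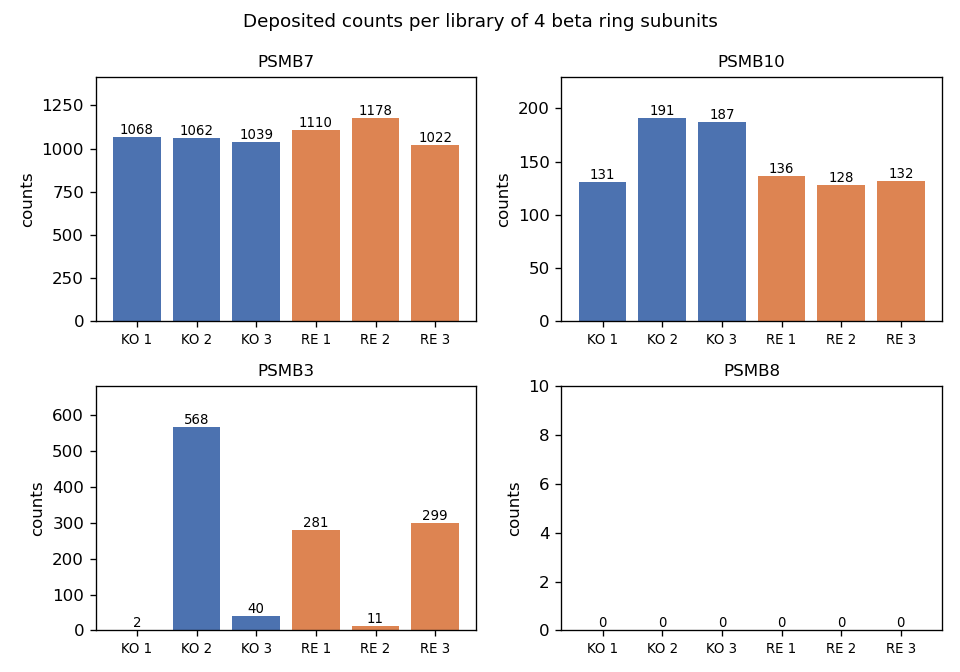
Deposited counts (vertical axis, from 0, with a scale of its own in each panel) of 4 beta ring subunits in the CBX8 KO (blue, KO) and WT CBX8 re-expression (orange, RE) libraries, with the count printed over each bar. PSMB7 stays between 1022 and 1178, PSMB10 reaches 187 or more only in CBX8 KO replicates 2 and 3, PSMB3 jumps between 2 and 568 within CBX8 KO, and PSMB8 is 0 in all 6.

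Of the 14 core genes 2 were lower and 0 higher, beside 6.63% and 6.23% of all tested genes, with a median log2 fold change of -0.04. In the alpha ring the values ran from -0.21 (PSMA3) to 0.02 (PSMA7, at 224, 216 and 242 CPM in CBX8 KO and 235, 242 and 215 CPM upon re-expression). PSMA1 (-0.13, SE 0.06, edgeR quasi-likelihood adjusted p of 0.13) came next to PSMA3. Among the structural beta subunits PSMB4 was nearest to 0 at -0.02, with 156, 166 and 176 CPM against 163, 171 and 157 CPM. PSMA6 was the member with the largest share of counts on named processed copies, at most 14.8% of the counts of the gene and those copies together.

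The 18 cap genes had 0 called in either direction by edgeR's quasi-likelihood test at FDR < 0.05, beside 12.9% of all tested genes. At an unadjusted p under 0.05 there was 1, beside 25.3%, and the median log2 fold change was -0.04. No cap gene was called in any alternative. Among the base ATPases, which unfold the substrate, the values ran from PSMC6 (-0.14, SE 0.07, edgeR quasi-likelihood adjusted p of 0.17) to PSMC3 (0.04). PSMC6 was at 62.7, 59.6 and 57.0 CPM in CBX8 KO and 56.0, 53.4 and 53.1 CPM upon re-expression, without overlap, and PSMC3 was at 158, 165 and 174 CPM against 169, 171 and 170 CPM.

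The non-ATPase subunits of the base include the scaffold subunits PSMD1 and PSMD2 and the ubiquitin receptors PSMD4 and ADRM1. PSMD1 was lowest in log2 fold change (-0.06) at 323, 330 and 314 CPM in CBX8 KO and 306, 322 and 301 CPM upon re-expression. ADRM1 was highest (0.05, SE 0.05, edgeR quasi-likelihood adjusted p of 0.58) at 177, 179 and 176 CPM against 185, 182 and 184 CPM. Its re-expression libraries all lay above its CBX8 KO libraries by a few CPM, and its fold change took the other sign (-0.02) after correction for GC content and length.

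In the lid, where PSMD14 is the deubiquitinating enzyme, PSMD11 had the lowest fold change (-0.09, SE 0.05, edgeR quasi-likelihood adjusted p of 0.25) and PSMD8 the highest (0.07, SE 0.05, edgeR quasi-likelihood adjusted p of 0.42). PSMD11 was at 278, 292 and 283 CPM in CBX8 KO and 269, 268 and 266 CPM upon re-expression. PSMD8 was at 182, 189 and 192 CPM against 196, 194 and 200 CPM. Neither overlapped between the groups, and neither passed the test.

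The balance of core to cap differed little. The summed counts of the 13 core genes without PSMB3 were 0.593, 0.595 and 0.601 of those of the 18 cap genes in CBX8 KO and 0.589, 0.582 and 0.566 upon re-expression. The ratio was lowest in re-expression replicate 3, and the groups did not overlap, though CBX8 KO replicate 1 and re-expression replicate 1 lay 0.004 apart.

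The 8 assembly chaperones had a median of -0.11, or -0.13 for the 5 of the core. PSMG1 was the only one called, beside 12.9% of all tested genes called in either direction. The 5 chaperones of the core were all below 0, from PSMG1 (-0.21) to PSMG3 (-0.01), although PSMG3 turned to 0.05 with library size and 0.0072 with upper quartile scaling, where the medians of all tested genes were 0.060 and 0.017. PSMG4 had 24.1, 24.5 and 23.6 CPM in CBX8 KO and 20.4, 21.2 and 21.1 CPM upon re-expression, so the groups were apart. Its log2 fold change of -0.20 (SE 0.09), on 174 to 206 counts per library, had an edgeR quasi-likelihood adjusted p of 0.18. POMP, which guides the joining of core intermediates, had 146, 153 and 150 CPM against 132, 148 and 130 CPM. Its groups overlapped through re-expression replicate 2, and its log2 fold change was -0.13 (SE 0.05, edgeR quasi-likelihood adjusted p of 0.12). Among the cap chaperones PSMD10 was at -0.09 and PSMD9, at 10.8 to 13.0 CPM the least abundant member but for PSMB3 in its low libraries, was at 0.06 (95% interval -0.20 to 0.32).

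NFE2L1 was level between the groups, at 236, 248 and 235 CPM in CBX8 KO and 249, 247 and 244 CPM upon re-expression. Its log2 fold change was 0.04 (95% interval -0.06 to 0.14, edgeR quasi-likelihood adjusted p of 0.63), and it was -0.02 after correction for GC content and length. The activators of the nuclear proteasome, PSME3 and PSME4, had log2 fold changes of -0.10 (edgeR quasi-likelihood adjusted p of 0.22) and -0.02 (edgeR quasi-likelihood adjusted p of 0.87). PSMF1, an inhibitor of the core, was at 251, 242 and 240 CPM against 213, 230 and 255 CPM, with a log2 fold change of -0.07 and re-expression replicate 3 above every CBX8 KO library.

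Transcript levels differed far more between members than between the groups. Compared per kb of canonical transcript over all 6 libraries, core genes ran from 29.5 CPM per kb for PSMA6 and 30.8 for PSMA2 to 238 for PSMA7, 8.07 times as much. Cap genes ran from 18.6 CPM per kb for PSMC1 to 144 for PSMD2, and 15 of the 18 lay within a factor of 2 of their median, 74.9. Chaperones of assembly ran from 4.29 CPM per kb for PSMD9 to 107 for POMP. PSMB10, at 18.7 CPM per kb, stood below every core gene, whereas PSME2, at 148, was above all but 3 of the core genes.

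**Figure D5:**
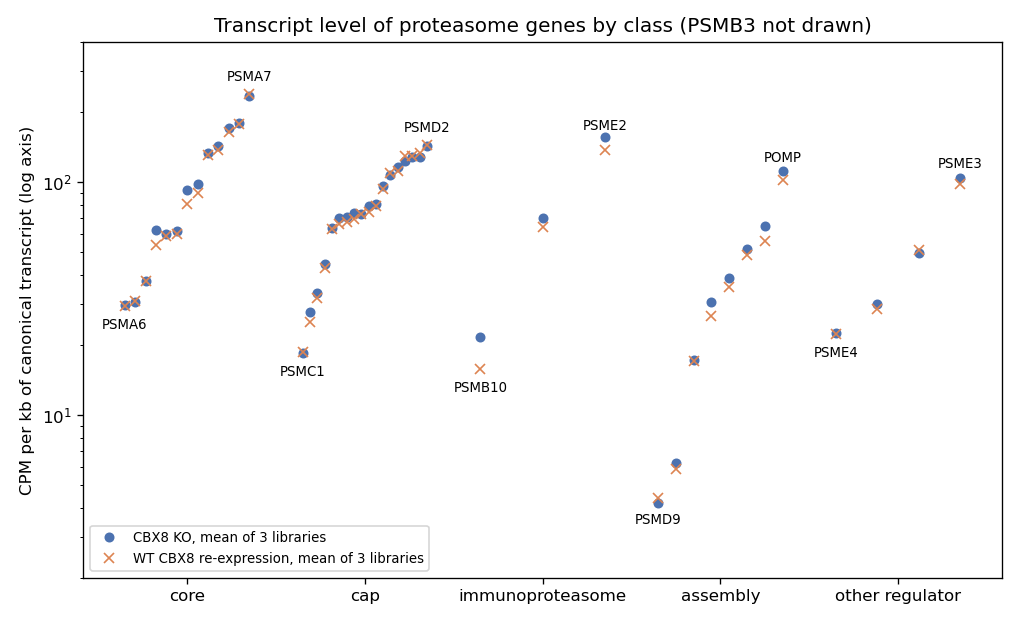
Mean level of each of 46 members in CPM per kb of canonical transcript (log axis), for CBX8 KO (blue circles) and WT CBX8 re-expression (orange crosses), by class and sorted by level within it. The lowest and highest gene of each class is named. Circle and cross nearly coincide for most genes, and levels span from 4.29 (PSMD9) to 238 (PSMA7) over all libraries.

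Genes that work with the proteasome were read from 3 lists beside the members. Of 23 ubiquitin-proteasome partners (shuttle factors, ubiquitin genes, deubiquitinases and related genes) 2 were lower and 1 higher at FDR < 0.05, beside 6.63% and 6.23% of all tested genes, with a median log2 fold change of -0.05. ZFAND5, which binds the proteasome and stimulates it, had 1716 to 1828 counts in CBX8 KO and 1403 to 1431 upon re-expression, a log2 fold change of -0.42 (SE 0.05, edgeR quasi-likelihood adjusted p of 5.7e-07). UBQLN4, a shuttle factor that carries ubiquitinated proteins to the cap, had a log2 fold change of -0.21 (SE 0.06, edgeR quasi-likelihood adjusted p of 0.013). UBB, which encodes polyubiquitin, was higher by 0.18 on the log2 scale (SE 0.05, edgeR quasi-likelihood adjusted p of 0.018), with 6799 to 8125 counts in CBX8 KO and 8757 to 9283 upon re-expression.

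Among 14 genes of antigen processing 10 could be tested, with a median log2 fold change of -0.07. Of these 2 were lower and 0 higher, beside 6.63% and 6.23% of all tested genes. Both were aminopeptidases of the endoplasmic reticulum that trim the peptides the proteasome makes. ERAP1 had 1762 to 1887 counts in CBX8 KO and 1475 to 1531 upon re-expression (log2 fold change -0.36, SE 0.05, edgeR quasi-likelihood adjusted p of 5.1e-06). ERAP2 was at -0.17 (SE 0.05, edgeR quasi-likelihood adjusted p of 0.022). The 8 genes of the CCT chaperonin, another ring-shaped complex of the cytosol, served as a comparison. Of these 0 were called by edgeR's quasi-likelihood test at FDR < 0.05, beside 12.9% of all tested genes, and 3 had an unadjusted p under 0.05, beside 25.3%. All 8 were below 0 with a median of -0.07, next to -0.06 for the proteasome genes.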

How the data were processed

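Poly(A) RNA of 6 T98G libraries (3 CBX8 KO, 3 WT CBX8 re-expression) was analysed from the table of raw counts per gene symbol that the authors deposited. Per the submitters' processing notes the authors used Trimmomatic, then HISAT2 against hg38. How reads were counted (program, annotation, strand) is not given in the sources used here, so reads of overlapping or near-identical genes may be split in other ways; exons of 23 of the 47 members overlap another annotated gene. With edgeR 4.0.16 in R 4.3.3, genes passing filterByExpr were scaled by TMM and tested with glmQLFit and glmQLFTest, with condition as the only term and Benjamini-Hochberg adjustment over all 14461 tested genes. SE is the absolute log2 fold change over the square root of F. The common biological coefficient of variation was 4.70%. Precision from depth covers counting error only. Positions and transcript lengths are from GENCODE release 44, promoters from RefSeq, and alternate copies were sought with minimap2 2.31 on 261 contigs (at least 95% of transcript bases). Alternatives included DESeq2 1.42.0 and limma voom 3.58.1. Members and lists were chosen with earlier results of these data known. Values per library are given for members past FDR < 0.05, the lowest and highest fold change of a class, PSMB5 to PSMB10, NFE2L1, POMP and ADRM1. The result of 1 gene of the antigen processing list is not reported here.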

Additional observations from a re-analysis of the deposited data

How the results depend on the processing

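The count of members called lower, 5, was unchanged under RLE and upper quartile scaling, both other filters, limma voom, the quasi-likelihood method with legacy set to FALSE and a mean CPM of at least 1 for members (47 members again). After correction for GC content and length the count was 4, with 1 core gene called. Beside it 8.93% of all tested genes were called lower, in place of 6.63%. The members' median was then -0.032, beside -0.0075 over all tested genes. The count was 2 with library size only (core 1, immunoproteasome 1, assembly 0, median -0.00077 beside 0.060 for all genes), 3 with DESeq2 (core 1, immunoproteasome 1) and 1 at FDR < 0.01 (core 1, immunoproteasome 0, assembly 0). With 1 library left out, and so fewer samples, the count ran from 1 to 6, beside 4.33% to 5.77% of all tested genes called lower. Members called higher ran from 0 to 1, core from 1 to 3, immunoproteasome from 0 to 2 and assembly from 0 to 1. The replicate numbers did not pair the libraries (correlations of same-numbered deviations -0.12, -0.04 and -0.02), and the replicate block gave 5 members lower and 0 higher, with 766 lower and 739 higher of all genes; of the members' signs it turned that of PSMB3 (0.41), as did limma voom (1.16).

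Among the 28 members with a fold change in the text, no member called with all libraries turned in sign, and of those that turned PSMB3 was called in 1 refit. With library size only, where the median of all genes was 0.060, the turned signs were PSMB4 (0.038), PSMB5 (0.017), PSMB7 (0.030), PSMD1 (0.00023), PSME4 (0.033) and PSMG3 (0.050), with upper quartile scaling PSMG3 (0.0072), and with the GC and length correction ADRM1 (-0.021) and NFE2L1 (-0.024). With 1 library left out, signs turned within these ranges: PSME4 -0.077 to 0.039, PSMA7 -0.014 to 0.066, PSMB3 -0.67 to 3.11, PSMB4 -0.062 to 0.024, PSMB5 -0.096 to 0.039, PSMG3 -0.088 to 0.061, PSMD9 -0.0053 to 0.15 and PSMB7 -0.058 to 0.011. The cause of these turns was not tested, except that fewer samples enter these last fits. The less abundant members PSMD9, PSMB10 and PSMG4 had SE of 0.13, 0.12 and 0.09, and the part of depth in these was not tested.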
